A study of Homo sapiens with 12 samples.

Results

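Chemokines are small secreted proteins that draw cells along a gradient, and 10 genes of this system were followed in cancer tissue, taken by name from a count table of 58735 genes. The 10 were the chemokines CXCL1, CXCL2, CXCL3, CXCL8, CXCL16, CCL2, CCL5 and CCL20, the receptor CXCR4 and the atypical receptor ACKR3. The tissue was made of MDA-MB-231 cells, a triple-negative human breast cancer line, which carried a green fluorescent protein, sat in fibrin gel and were cultured under flow in the AngioPlate device. Its RNA was taken from the middle well of the plate 5 days after the cancer cells had been seeded, from 3 conditions with 4 libraries each. In the cardiac co-culture the device also held a tissue of stem cell-derived (iPSC) cardiomyocytes mixed with 2% cardiac fibroblasts, and in the hepatic co-culture HepG2 cells, a human liver cancer line, with 2% lung fibroblasts. In the monoculture the cancer tissue was alone. The labels call the libraries biological replicates and name no separate cultures, so the p-values speak of the spread among these libraries alone.

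CXCL1, CXCL2, CXCL3 and CXCL8 share a Glu-Leu-Arg motif, bind the neutrophil receptors CXCR1 and CXCR2, and are classic targets of the transcription factor NF-kB downstream of interleukin-1 and TNF. CCL20 is the ligand of CCR6 and CCL2 of CCR2, CCL5 attracts T cells, and CXCL16 is a membrane-bound chemokine that proteases can shed and that binds CXCR6. CXCR4 is the receptor of CXCL12 and has long been studied in breast cancer spread to organs rich in that ligand. ACKR3 binds CXCL12 too, but takes it up and degrades it instead of signalling through G proteins.

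The promoters of 6 of the 10 genes were in the RefSeq promoter table for GRCh38.p14 (250 bases before to 50 after the start), among them CXCR4 with more than 1 start. The 30-base windows below are shown because 4 of these genes carry the same NF-kB-type motif, and these are the 4 neighbours on chromosome 4 whose levels are described next. Capitals mark the 9 bases of the motif, GGAATTTCC in the first 4 windows, and GGAANNNCC, a looser form written so that it also takes in the CCL20 window, in the last. The looser form was also found in a CXCR4 promoter. All are written 5′ to 3′ along the gene's own strand.
CXCL1 (chr4:73869304-73869333, plus strand): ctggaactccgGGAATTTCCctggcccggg
CXCL2 (chr4:74099254-74099283, minus strand): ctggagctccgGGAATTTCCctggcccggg
CXCL3 (chr4:74038749-74038778, minus strand): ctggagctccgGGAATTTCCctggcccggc
CXCL8 (chr4:73740467-73740496, plus strand): ttgcaaatcgtGGAATTTCCtctgacataa
CCL20 (chr2:227813752-227813781, plus strand): ttgatcaatggGGAAAACCCcatgtggcaa

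The motif began 78 bases before the RefSeq start in CXCL1 and CXCL3, 77 in CXCL2, 91 in CXCL8 and 79 in CCL20. Of the 35116 promoters in the table, 0.461% held GGAATTTCC on either strand, while 20.1% held GGAANNNCC. The windows of CXCL1 and CXCL2 were identical at 29 of 30 bases, those of CXCL1 and CXCL3 at 28, and that of CXCL8 matched these 3 at 16 or 17. Of the 6 genes, CXCL8 alone also held TGACTCA, the site of AP-1 factors, which 4.95% of all promoters held. Such matches describe letters and not binding. As transcribed genes, CXCL1, CXCL2, CXCL3 and CXCL8 lie in GRCh38 on chromosome 4 between 73740506 and 74099293. CXCL8 and CXCL1 are on the plus strand and CXCL3 and CXCL2 on the minus strand. Other genes lying between them are not listed here. CXCL1, CXCL2 and CXCL3 are close paralogs, and how reads matching several of them were counted is not given in the sources used here, so the split of reads among the 3 is uncertain.

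In units of 1000000 counts (M), total depth was 27.0 to 37.4 M per cardiac library, 26.2 to 42.4 M per hepatic and 35.0 to 42.0 M per monoculture library. Levels are CPM, counts per 1000000 counts after TMM scaling. Cardiac replicate 4 stood apart from its group. On principal component 1 (28.5% of variance) it lay at 24.9, against -16.3 to -6.79 for cardiac replicates 1 to 3, -46.8 to -24.5 for the hepatic libraries and 22.3 to 51.1 for monoculture. Among the 8 members tested it was the lowest of its group in 6, where 32.0% of all genes tested had it lowest, and in 6 it fell inside the monoculture range, as did 51.2% of all genes tested. The counts of members and of listed genes called in the comparisons with the cardiac co-culture are therefore given with and without this library.

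Per length of exon, the cancer tissue of monoculture carried most CXCL1, at 15.5 ± 3.88 CPM per kb (SD, n = 4 here and below), followed by CXCL8 at 12.4 ± 1.80, CXCL2 at 7.93 ± 1.01 and CCL20 at 5.75 ± 1.28 CPM per kb. Far below came CXCL3 at 1.05 ± 0.339, CXCL16 at 0.928 ± 0.292, CXCR4 at 0.454 ± 0.111 and ACKR3 at 0.327 ± 0.129 CPM per kb. Within the SDs the order of CXCL1 and CXCL8, of CXCL2 and CCL20, of CXCL3 and CXCL16, and of CXCR4 and ACKR3 was not settled. CCL5 and CCL2 were at the edge of detection and were not tested in the fit with the low-count filter. CCL5 had 1, 2, 3 and 12 counts in the cardiac, 0, 15, 6 and 7 in the hepatic and 10, 0, 7 and 2 in the monoculture libraries. CCL2, a monocyte attractant, had 8, 0, 0 and 0 counts in the cardiac libraries, 0 in all 4 hepatic ones and 2, 0, 10 and 5 in monoculture. A count of 0 allows up to 3 counts, or 0.0692 to 0.115 CPM depending on the library. Monoculture replicates 3 and 4, at 0.231 and 0.139 CPM of CCL2, were above that floor, on 10 and 5 counts. Results for CCL2 and CCL5 with no low-count filter are not given here, so no difference in them is claimed.

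**Figure D1:**
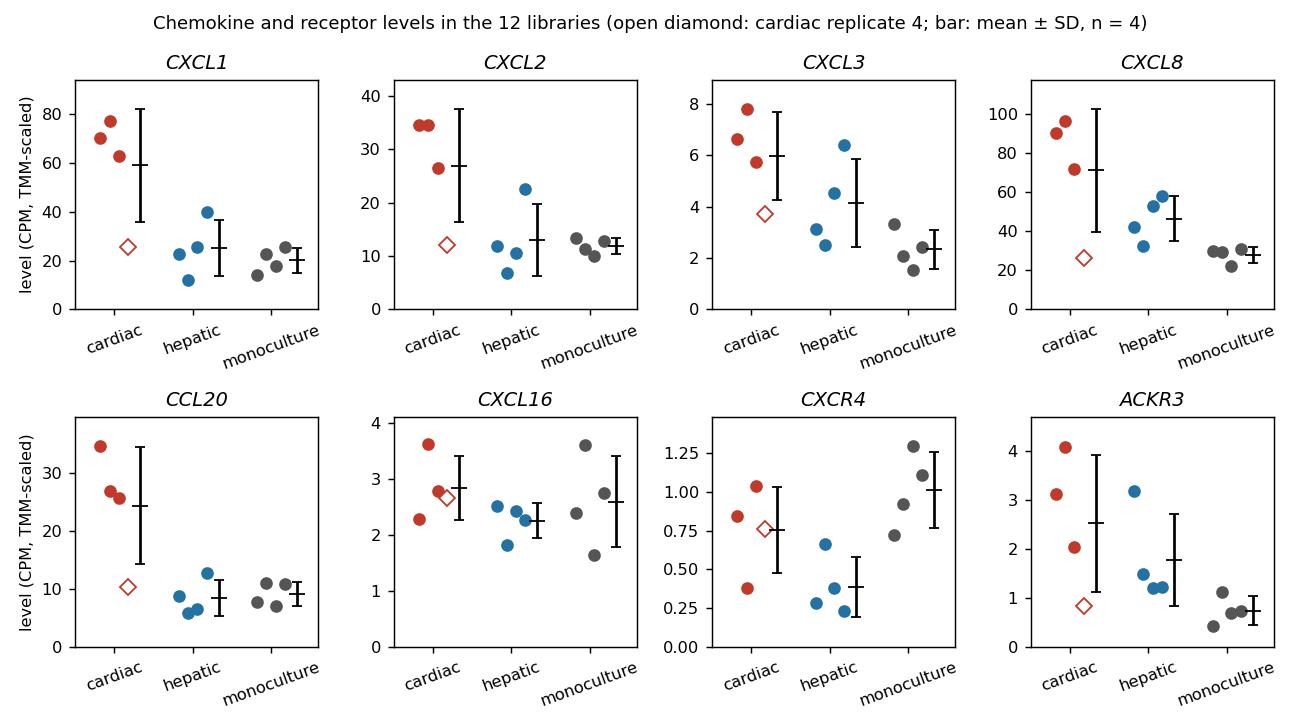
Level of each tested chemokine and receptor in CPM (vertical axis) in the cardiac, hepatic and monoculture libraries, with the mean ± SD of 4 beside them. Cardiac replicates 1 to 3 sit above every monoculture library for CXCL1, CXCL2, CXCL3, CXCL8, CCL20 and ACKR3, while cardiac replicate 4 (open diamond) lies at or near the monoculture points, and CXCR4 runs lowest in the hepatic libraries.

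CXCL3, CCL20 and ACKR3 were higher in the cardiac co-culture than in monoculture. CXCL1, CXCL2 and CXCL8 missed the threshold in the fit of 12 libraries and passed it without cardiac replicate 4 and, with all libraries, by DESeq2. CXCR4 and CXCL16 did not pass in the fit with or without that library. With all libraries, 3 of the 8 members tested were called higher (CXCL3, CCL20 and ACKR3) and 0 lower (0 also by DESeq2 and at an unadjusted p under 0.05) by edgeR's quasi-likelihood test (Benjamini-Hochberg adjusted p under 0.05 over 17468 genes), beside 4.93% of all genes tested called higher and 8.26% called in either direction. Without cardiac replicate 4, 6 were called higher and 0 lower, beside 9.9% of all genes higher and 19.1% in either direction. The median log2 fold change of the 8 was 1.35, against 0.006 over all genes tested. Leaving out other single libraries gave from 0 (without cardiac replicate 2, or without monoculture replicate 3) to 4 members called higher. In the fits with 0, calls over all genes in either direction also fell, from 1443 to as few as 263.

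CXCL1, a potent neutrophil attractant and growth factor first described in melanoma, stood at 70.4, 77.2, 62.8 and 25.6 CPM in cardiac replicates 1 to 4 and at 14.2, 22.7, 17.9 and 25.5 CPM in monoculture replicates 1 to 4. The first 3 cardiac libraries were well above monoculture, and the fourth exceeded the highest monoculture library by a hair, so the groups did not overlap, which 7.77% of all genes tested also showed in this direction. The log2 fold change was 1.55 ± 0.42 (SE), with an edgeR adjusted p of 0.0529. With that library left out it was 1.80 ± 0.35, with an adjusted p of 0.00931, and the cardiac mean was 70.1 ± 7.19 CPM (n = 3) against 20.1 ± 5.03 CPM in monoculture. The call was also made with upper-quartile scaling and without hepatic replicate 2 or hepatic replicate 4, which enter through the shared estimate of spread.

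CXCL8 (interleukin-8), the best known human neutrophil chemokine, had 90.2, 96.5, 71.8 and 26.4 CPM in the cardiac libraries and 29.9, 29.5, 22.0 and 30.9 CPM in monoculture. Here cardiac replicate 4 lay inside the monoculture range and the other 3 were all above it, as were those of 16% of all genes tested. Without that library the cardiac mean was 86.1 ± 12.8 CPM (n = 3), a log2 fold change of 1.62 ± 0.19 with an edgeR adjusted p of 0.000516, the smallest of the 8 members in that fit. CXCL2, a macrophage-derived relative of CXCL1, had 34.6, 34.6, 26.5 and 12.2 CPM in the cardiac libraries, against 13.4, 11.4, 10.02 and 12.8 CPM in monoculture. It followed the same pattern, with replicate 4 inside the monoculture range. Its log2 fold change was 1.18 ± 0.39 (edgeR adjusted p = 0.0958) with all libraries and 1.42 ± 0.32 (adjusted p = 0.0142) without replicate 4, the one library whose omission brought the call for CXCL2 or CXCL8.

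CXCL3, the least abundant of the 4, was called with all libraries. It had 6.63, 7.82, 5.74 and 3.74 CPM in the cardiac libraries, against 3.32, 2.09, 1.52 and 2.42 CPM in monoculture. Every cardiac library was above every monoculture library, replicate 4 included, as for 7.77% of all genes tested. The log2 fold change was 1.35 ± 0.30 (edgeR adjusted p = 0.0155) and 1.53 ± 0.29 (adjusted p = 0.00181) without replicate 4. Of the 12 fits that left out 1 library, 10 kept the call. It was lost without cardiac replicate 2 and without monoculture replicate 3, with an adjusted p of up to 0.0593.

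CCL20, which attracts CCR6-bearing dendritic cells and Th17 cells, had 34.6, 26.9, 25.6 and 10.3 CPM in the cardiac libraries, against 7.72, 11.1, 7.09 and 10.8 CPM in monoculture. Cardiac replicates 1 to 3 were at more than the highest monoculture library, as were those of 16% of all genes tested, and replicate 4 was inside the monoculture range, so the groups overlapped. CCL20 was called higher at a log2 fold change of 1.41 ± 0.36 (edgeR adjusted p = 0.0441) and at 1.66 ± 0.24 (adjusted p = 0.000878) without cardiac replicate 4. The call was made in 3 of the 12 fits that left out a library (cardiac replicate 4, hepatic replicate 2 or hepatic replicate 4) and was lost in the other 9, with an adjusted p of up to 0.129. CXCL16 showed no call in any fit, at 2.83 ± 0.571 CPM in the cardiac co-culture against 2.59 ± 0.815 CPM in monoculture, a log2 fold change of 0.13 (95% interval -0.38 to 0.64) whose sign turned without cardiac replicate 2 or without monoculture replicate 3. CXCL16 overlaps MED11 on the opposite strand, and the labels describe both a stranded and an unstranded kit, so reads of that gene cannot be told apart.

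**Figure D2:**
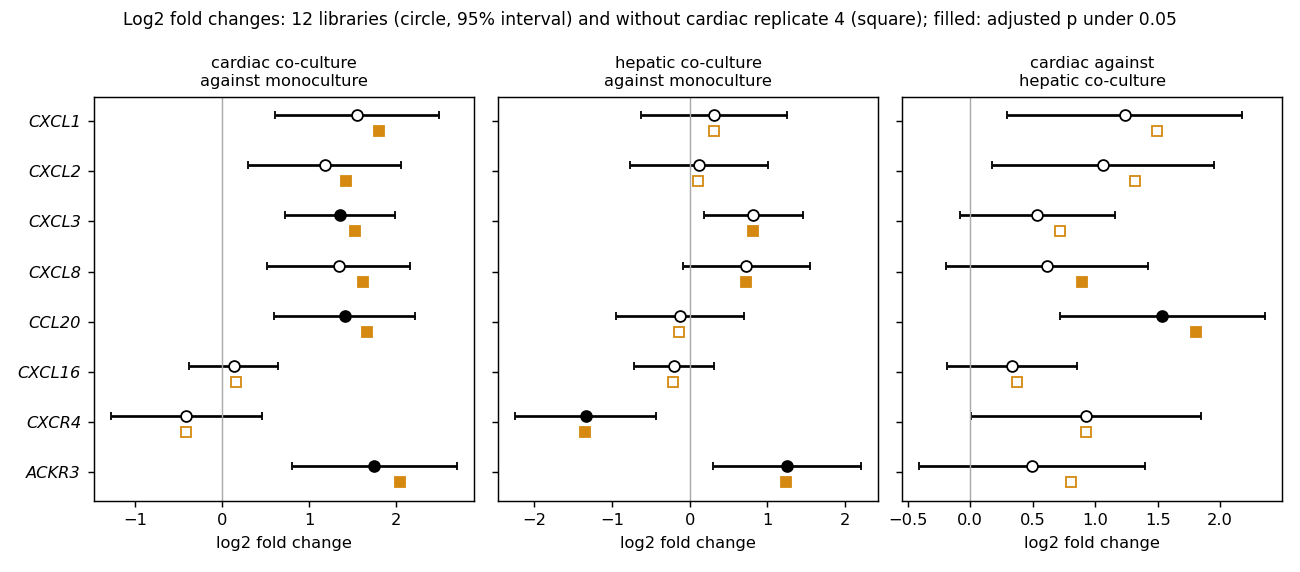
Log2 fold change of each tested gene (horizontal axis) in the 3 comparisons, with its 95% interval, over all 12 libraries (black circles) and without cardiac replicate 4 (orange squares); filled symbols have an adjusted p under 0.05. Without that library 6 genes are filled for cardiac co-culture against monoculture in place of 3, and CXCR4 is left of 0 against monoculture in both co-cultures, filled in the hepatic one.

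Against monoculture, the hepatic co-culture had both receptors called, CXCR4 lower and ACKR3 higher, while among the ligands CXCL8 and CXCL3 were above monoculture without passing the test in the fit of 12 libraries. With all libraries 1 member was called higher and 1 lower of the 8 tested, beside 14.4% of all genes tested called higher, 13.6% lower and 28% in either direction. The median log2 fold change of the 8 was 0.22, against 0.015 over all genes. Without cardiac replicate 4, which bears on these 2 groups through the spread shared by the fit and through the filter on low counts, 3 were called higher and 1 lower, beside 15.5% of all genes higher, 15.6% lower and 31.2% in either direction. With all libraries the share of members called was near that of all genes. Both comparisons use the same 4 monoculture libraries, so they are not independent of each other.

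CXCL8 had 42.4, 32.5, 52.9 and 58.3 CPM in hepatic replicates 1 to 4, all above the monoculture libraries, whose highest was 30.9 CPM. The groups did not overlap, which 15.1% of all genes tested also showed in this direction. Its log2 fold change of 0.73 ± 0.36 did not pass (edgeR adjusted p = 0.173), but did without cardiac replicate 4 (0.72 ± 0.18). Of the other settings, it passed only with these 2 groups fitted alone. CXCL3 had 3.14, 2.50, 4.52 and 6.39 CPM in the hepatic libraries, overlapping monoculture in the first 2. Its log2 fold change was 0.82 ± 0.30 (edgeR adjusted p = 0.0519) and 0.81 ± 0.27 (adjusted p = 0.0312) without cardiac replicate 4. The call was also made without hepatic replicate 2, cardiac replicate 2 or monoculture replicate 1. With all libraries of these 2 groups it was made with upper-quartile scaling, no low-count filter, 2 groups at a time or DESeq2.

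CXCL1, CXCL2 and CCL20 were not called in any fit of this comparison, and hepatic replicate 4 was the highest of its group for each of them. CXCL1 had 22.8, 12.1, 25.5 and 40.1 CPM, CXCL2 had 12.0, 6.87, 10.5 and 22.6 CPM and CCL20 had 8.72, 5.81, 6.44 and 12.7 CPM in hepatic replicates 1 to 4. All 3 ranges took in the monoculture levels given above. The log2 fold changes were 0.32 (95% interval -0.63 to 1.26), 0.12 (-0.77 to 1.00) and -0.13 (-0.95 to 0.69), in that order. The sign turned without hepatic replicate 4 for CXCL1 and CXCL2 and without hepatic replicate 2 for CCL20.

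CXCR4, the receptor of CXCL12, was lower in the hepatic co-culture. It had 0.282, 0.661, 0.377 and 0.230 CPM in hepatic replicates 1 to 4, against 0.720, 0.919, 1.29 and 1.11 CPM in monoculture. All hepatic libraries were below all monoculture libraries, as for 15.4% of all genes tested, although hepatic replicate 2 came close to monoculture replicate 1. These levels rest on few reads. Hepatic replicate 4 had 6 counts (exact Poisson 95% interval 2.20 to 13.1), hepatic replicate 2 had 28 (18.6 to 40.5) and monoculture replicate 1 had 26 (17.0 to 38.1), intervals that cover counting error only.

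The log2 fold change of CXCR4 was negative in all 12 fits that left out 1 library, between -1.75 and -1.17, and under all 6 other settings. It passed the threshold under all 6 of those settings and in 7 of the 12 fits. The call was lost without hepatic replicate 1, 3 or 4 and without monoculture replicate 3 or 4, with an edgeR adjusted p of up to 0.0836. The cardiac libraries had 0.843, 0.378, 1.04 and 0.763 CPM of CXCR4, a range that overlapped both the hepatic and the monoculture one, and its log2 fold change of -0.41 (95% interval -1.28 to 0.46) against monoculture did not pass. In these bulk libraries fewer cells carrying a transcript and less of it per cell cannot be told apart.

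ACKR3, the scavenging receptor of CXCL12, was higher in both co-cultures. It had 3.12, 4.08, 2.04 and 0.842 CPM in the cardiac, 3.18, 1.49, 1.20 and 1.22 CPM in the hepatic and 0.415, 1.12, 0.692 and 0.722 CPM in the monoculture libraries. Every hepatic library was above the highest monoculture library, as for 15.1% of all genes tested. So were cardiac replicates 1 to 3, as for 16% of all genes tested, and cardiac replicate 4 was inside the monoculture range. Against monoculture the log2 fold change was 1.75 ± 0.45 (edgeR adjusted p = 0.0269) in the cardiac and 1.25 ± 0.45 (adjusted p = 0.0467) in the hepatic co-culture. Without cardiac replicate 4 these were 2.05 ± 0.38 (adjusted p = 0.00151) and 1.25 ± 0.37 (adjusted p = 0.0142).

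Both calls on ACKR3 passed under all 6 other settings, but neither held in every fit that left out 1 library. The cardiac call passed in 6 of 12 and was lost without cardiac replicate 1, 2 or 3 and without monoculture replicate 1, 3 or 4 (adjusted p of up to 0.104 by edgeR). The hepatic call passed in 4 of 12 and was lost without hepatic replicate 1, 2 or 3, cardiac replicate 1 or 3, or monoculture replicate 1, 3 or 4 (adjusted p of up to 0.189). The lowest log2 fold change was 1.42 in the cardiac and 0.82 in the hepatic comparison.

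Set against each other per length of exon, ACKR3 over CXCR4 was 3.64, 10.6, 1.94 and 1.09 in cardiac replicates 1 to 4, 11.1, 2.22, 3.13 and 5.25 in hepatic replicates 1 to 4 and 0.568, 1.20, 0.528 and 0.640 in monoculture. All hepatic libraries and cardiac replicates 1 to 3 were above the highest monoculture library, while cardiac replicate 4 was below it. This ratio was computed after the values had been seen and is a description. Its numerator rests on 15 to 108 and its denominator on 6 to 56 counts a library. CXCL12, the ligand of both receptors, had 0 counts in all 12 libraries.

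Set directly against each other, the co-cultures differed in CCL20. Its level was 24.4 ± 10.1 CPM in the cardiac and 8.42 ± 3.12 CPM in the hepatic co-culture, a log2 fold change of 1.54 ± 0.37 (edgeR adjusted p = 0.0370) and of 1.80 ± 0.25 (adjusted p = 0.000750) without cardiac replicate 4. With all libraries the groups overlapped, since cardiac replicate 4 was below hepatic replicate 4. The call was kept without cardiac replicate 4, hepatic replicate 4 or monoculture replicate 3 and lost in the other 9 fits that left out 1 library (adjusted p of up to 0.105). CCL20 was the 1 member called of 8, beside 3.27% of all genes tested called higher and 6.18% called in either direction. Without cardiac replicate 4 CXCL8 was called as well, at a log2 fold change of 0.90 ± 0.19 (edgeR adjusted p = 0.0219), making 2 members beside 2.61% of all genes higher and 4.79% called in either direction.

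The remaining members did not pass between the co-cultures. CXCL1 (log2 fold change 1.24 ± 0.42, edgeR adjusted p = 0.127) and CXCL2 (1.06 ± 0.40, adjusted p = 0.160) came to 1.50 ± 0.35 (adjusted p = 0.0510) and 1.32 ± 0.33 (adjusted p = 0.0520) without cardiac replicate 4, and CXCL2 passed without hepatic replicate 4. CXCR4 was 0.93 higher on the log2 scale in the cardiac co-culture (95% interval 0.004 to 1.85, edgeR adjusted p = 0.241). ACKR3 (0.50, -0.41 to 1.40), CXCL3 (0.54, -0.08 to 1.16) and CXCL16 (0.33, -0.18 to 0.85) had intervals that took in 0. A call on CXCR4 against monoculture in the hepatic co-culture and none in the cardiac one is thus not shown to be a difference between them.

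**Figure D3:**
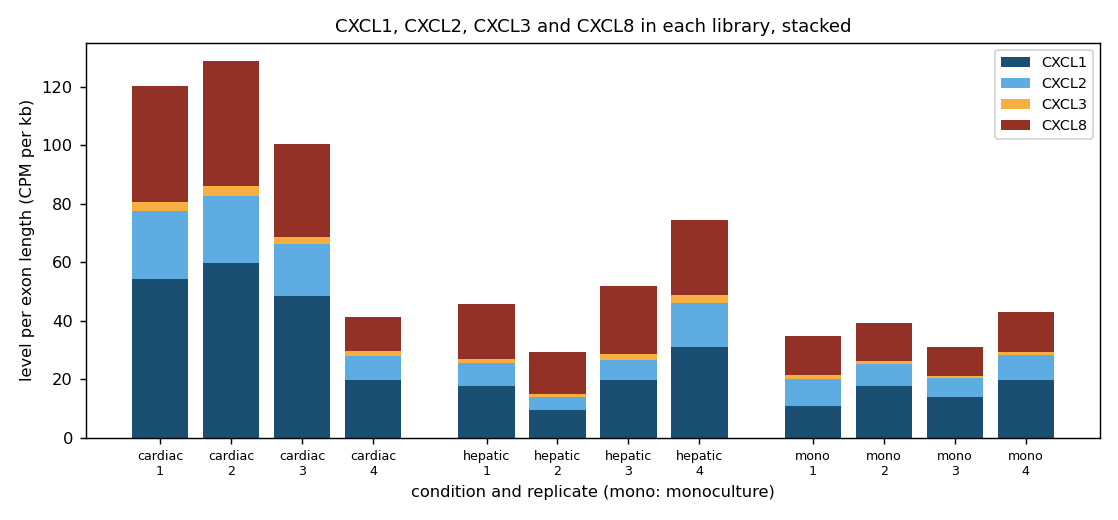
Summed level of the 4 chromosome 4 neighbours in CPM per kb of exon (vertical axis, stacked bars) in each library of the 3 conditions. Cardiac replicates 1 to 3 reach 100.3 to 128.6, cardiac replicate 4 reaches 41.2, the hepatic libraries 29.4 to 74.5 and the monoculture libraries 30.8 to 42.9 CPM per kb.

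Within the 4 neighbours the make-up differed less than the sum. CXCL1 made 47.0 ± 1.45% of their summed level per kb in the cardiac co-culture, 37.5 ± 4.02% in the hepatic one and 41.8 ± 6.77% in monoculture. CXCL8 made 31.4 ± 2.26%, 42.2 ± 6.06% and 33.6 ± 3.11% in these conditions. In the cardiac libraries CXCL1 was the largest share, and in the hepatic libraries CXCL8 was on average, with ranges of 34.4 to 48.6% for CXCL8 and 31.9 to 41.5% for CXCL1 that overlapped. CXCL2 ranged between 13.5 and 25.9% and CXCL3 between 2.23 and 4.33% over the 12 libraries.

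Within groups and over all 12 libraries, CXCL1, CXCL2, CXCL8 and CCL20 varied together, CXCL3 less closely and CXCL16 weakly. After the mean of each group was taken off, the correlations of log2 CPM among CXCL1, CXCL2, CXCL8 and CCL20 over the 12 libraries lay between 0.865 and 0.899 (Pearson's r). Without cardiac replicate 4 they were lower, between 0.649 for CXCL8 with CCL20 and 0.821 for CXCL2 with CXCL8. Over the 12 libraries the r of CXCL3 with these 4 lay between 0.650 for CCL20 and 0.861 for CXCL2, and that of CXCL16 with the other 5 ligands between 0.253 and 0.382. Without cardiac replicate 4 the r of CXCL3 was 0.898 with CXCL8 and 0.831 with CXCL2, but 0.578 with CXCL1 and 0.503 with CCL20. The place of CXCL3 beside the other 4 thus depended on that library. For CXCL16 these values then lay between 0.269 and 0.559. CXCR4 had a negative r with each of the other 7 members, from -0.674 with CXCL3 to -0.219 with ACKR3. Of the 28 pairs, 21 had an r above 0 and the median was 0.405. The points share libraries, depth and scaling, and CXCR4 is low, so these values describe the libraries and carry no test. For ACKR3 the relation with CXCL8 rested on 1 library, at 0.582 with and -0.044 without cardiac replicate 4.

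**Figure D4:**
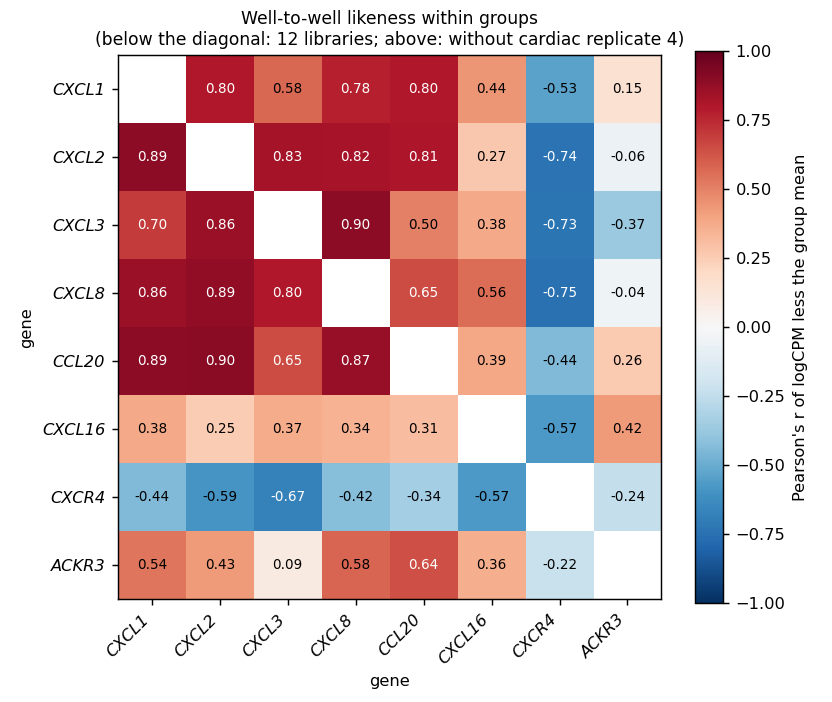
Pearson's r between genes of log2 CPM less the group mean (colour scale and printed values), below the diagonal over 12 libraries and above it without cardiac replicate 4. CXCL1, CXCL2, CXCL3, CXCL8 and CCL20 form a block of positive values, the CXCR4 row and column are negative throughout, and the ACKR3 row turns from positive to near or below 0 with CXCL2, CXCL3 and CXCL8 above the diagonal.

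Among 11664 other protein-coding genes of mean log2 CPM above 1, those most like CXCR4 over the 12 libraries were TTLL7 (r = 0.935), CLINT1 (0.932) and KDR (0.906). Most like CXCL8 were PPP1R15A, a stress-induced regulator of translation (0.953), BMP6 (0.949) and the stromelysin MMP10 (0.945). For ACKR3 they were PDZK1IP1 (0.967), CDCP1 (0.954) and the copper transporter ATP7A (0.952). These r include the differences between groups, and within groups they were 0.738 to 0.867 for the CXCR4 set, 0.914 to 0.953 for the CXCL8 set and 0.909 to 0.940 for the ACKR3 set. The highest of so many correlations are high by choice.

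Other chemokines were scarce. Of 38 further chemokine genes, 20 had no count in any library and 9 were tested. In the cardiac co-culture against monoculture 0 of the 9 were called by edgeR's quasi-likelihood test (1 at an unadjusted p under 0.05, and 1 by DESeq2), beside 8.26% of all genes. In the hepatic one 3 of the 9 were called lower, beside 13.6% of all genes called lower and 28% in either direction. CCL28, a mucosal chemokine, had 8.08 ± 2.98 CPM in the cardiac co-culture against 4.95 ± 1.33 CPM in monoculture and was called without cardiac replicate 4 (edgeR adjusted p = 0.00455), not with it (adjusted p = 0.109). CX3CL1, the membrane-tethered fractalkine, had 1.29 ± 0.375 CPM in the hepatic co-culture against 5.30 ± 1.12 CPM in monoculture, a log2 fold change of -2.04 ± 0.34 (edgeR adjusted p = 0.000410). CXCL11, an interferon-induced ligand of CXCR3, had 0.239 ± 0.178 CPM in the hepatic co-culture against 1.36 ± 0.224 CPM in monoculture (log2 fold change -2.43 ± 0.54, adjusted p = 0.00270). Both calls held in all 12 fits that left out 1 library, while that of PF4 held in 4. PF4, at 0.0448 ± 0.0667 CPM in the hepatic co-culture against 0.305 ± 0.281 CPM in monoculture, rests on a few counts a library (-2.79 ± 1.01, adjusted p = 0.0455). These 3 genes were higher in the cardiac than in the hepatic co-culture, beside 3.27% of all genes called higher and 6.18% in either direction. The call held in all 12 such fits for CX3CL1 (1.68 ± 0.34) and in 2 each for CXCL11 and PF4. The fit without cardiac replicate 4 was not among those 2. In it 2 of the 9 genes were called, beside 4.79% of all genes.

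Receptors for these ligands were scarcer still in the cancer tissue. CXCR2 and CCR6 had 0 counts in every library and CXCR1 had 1 count in all. CXCR6 had 2 to 20 counts a library and CCR2 had 0 to 16. These receptors, and CXCL12 above, were picked as partners of the members after the values had been seen. Of 21 further receptor genes 5 were tested, of which 0 passed in any of the 3 comparisons by edgeR's quasi-likelihood test, by DESeq2 or at an unadjusted p under 0.05. CCR1 was called in the hepatic co-culture without monoculture replicate 2. The most abundant was CCRL2, an atypical receptor of the chemerin system, at 17.4 ± 0.588 CPM in the cardiac, 17.6 ± 0.800 CPM in the hepatic and 15.7 ± 1.21 CPM in the monoculture libraries. The next, CCR1, had 0.706 ± 0.206, 0.984 ± 0.607 and 0.457 ± 0.365 CPM in the same order of conditions.

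Of 30 genes that carry the signal of chemokine receptors, 27 were tested. In the cardiac co-culture against monoculture 1 was higher and 1 lower (2 and 1 without cardiac replicate 4), beside 8.26% of all genes called (19.1% without that library). They were RAC2, a small GTPase of directed migration (0.28 ± 0.06 on the log2 scale, edgeR adjusted p = 0.0126), and GNG12, a G protein subunit (-0.24 ± 0.07, adjusted p = 0.0350, which held in 5 of 12 fits that left out 1 library). The count of 2 came to 1 without cardiac replicate 1, 2 or 3 or any 1 monoculture library. Except without monoculture replicate 2, calls over all genes fell in these fits too, from 1443 to as few as 263. In the hepatic co-culture 5 were higher and 4 lower, 9 of 27 beside 28% of all genes called. RAC2 was higher there too (0.35 ± 0.06, adjusted p = 0.000419), while GNAI1, an inhibitory G protein alpha subunit (-0.41 ± 0.10, adjusted p = 0.00388), and DOCK2, an activator of RAC proteins (-1.25 ± 0.34, adjusted p = 0.0105), were lower. Between the co-cultures DOCK1 was higher in the cardiac one and GRK2, a kinase that shuts off receptors, lower, beside 6.18% of all genes called, and the call on GRK2 held in none of the 12 fits.

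The NF-kB list held 19 genes, all tested. Of these, in the cardiac co-culture 7 were higher and 1 lower than in monoculture, beside 8.26% of all genes called, with a median log2 fold change of 0.16 against 0.006 over all genes. TNIP1, a brake on NF-kB signalling, was higher by 0.53 ± 0.08 on the log2 scale (edgeR adjusted p = 0.00324). NFKBIZ, an inducible nuclear partner of NF-kB, was at 36.4 ± 9.30 CPM in the cardiac co-culture against 17.99 ± 1.08 CPM in monoculture (1.02 ± 0.20, adjusted p = 0.0130). CHUK, a kinase of the pathway, was lower (-0.32 ± 0.08, adjusted p = 0.0191). The count was 8 higher and 2 lower without cardiac replicate 4, beside 19.1% of all genes called in that fit. It was 2 genes in all without cardiac replicate 1, cardiac replicate 2, or monoculture replicate 1, 3 or 4, and 4 and 5 without cardiac replicate 3 or monoculture replicate 2. Calls over all genes also fell in these fits, from 1443 to as few as 263, except without monoculture replicate 2. The lower counts are thus not particular to this list.

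In the hepatic co-culture 4 NF-kB genes were higher and 7 lower than in monoculture, beside 28% of all genes called. BIRC3, an inhibitor of apoptosis induced by NF-kB, had 105 ± 19.1 CPM in the hepatic co-culture against 295 ± 51.3 CPM in monoculture (log2 fold change -1.49 ± 0.13, edgeR adjusted p = 6.78e-06). MAP3K14, the kinase of the noncanonical pathway, was lower (-0.58 ± 0.13, adjusted p = 0.00279) and BCL3, a nuclear co-regulator, higher (0.84 ± 0.16, adjusted p = 0.00250). NFKBIZ was higher (0.93, adjusted p = 0.00396) and CHUK lower (-0.27, adjusted p = 0.0130) in the hepatic co-culture too. BCL3 was also higher in the cardiac co-culture than in monoculture (0.75, adjusted p = 0.0194). Between the co-cultures 4 were higher in the cardiac one and 0 lower, with and without cardiac replicate 4. Of all genes tested, 3.27% were called higher and 6.18% in either direction (2.61% and 4.79% without that library). The NF-kB calls were led by BIRC3 (1.46 ± 0.13, adjusted p = 1.44e-05), TNIP1 (0.55 ± 0.08) and IKBKE (0.59 ± 0.12), all of which held in all 12 fits that left out 1 library.

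**Figure D5:**
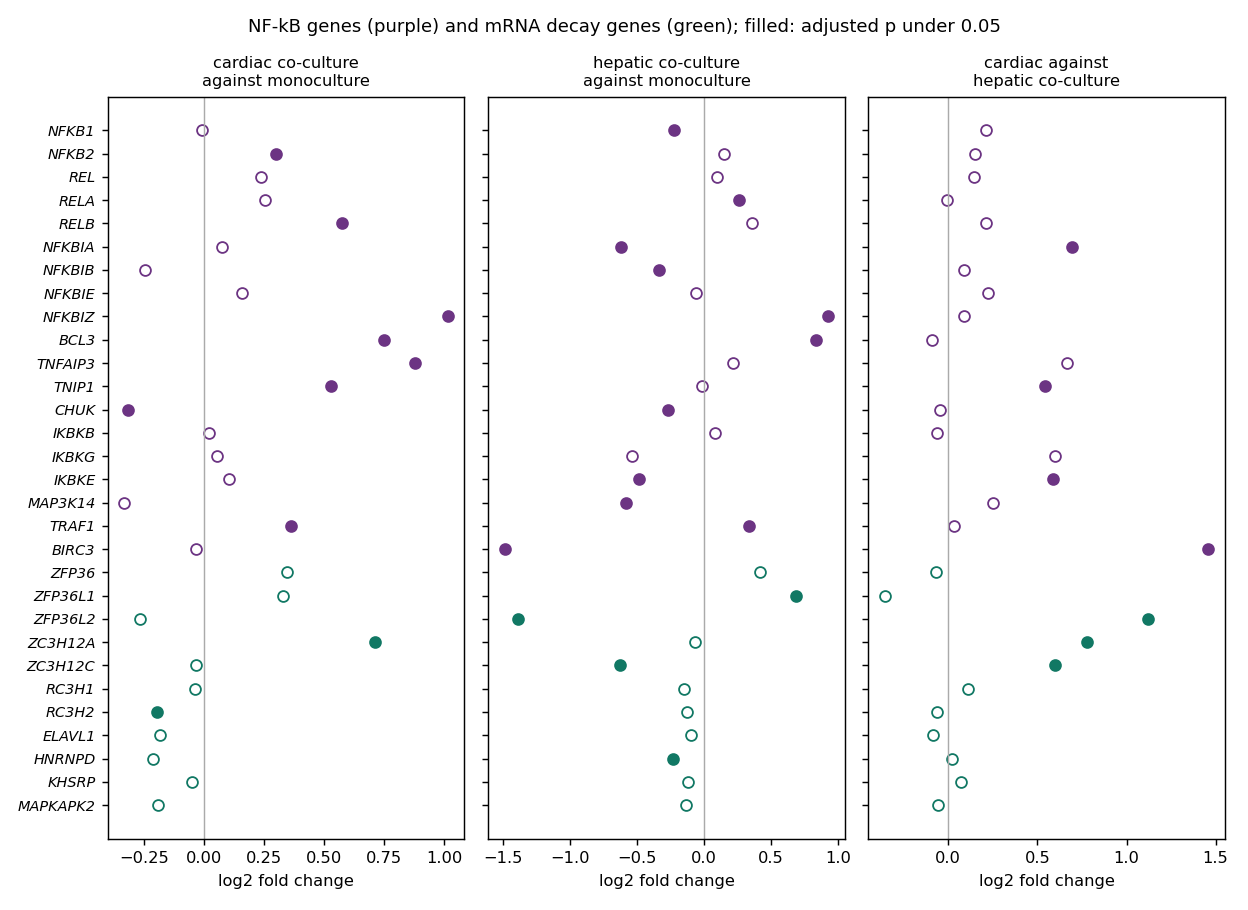
Log2 fold change (horizontal axis) of each NF-kB gene (purple) and each mRNA decay gene (green) in the 3 comparisons over 12 libraries; filled points have an adjusted p under 0.05. NFKBIZ and BCL3 are right of 0 against monoculture in both co-cultures, and BIRC3 and ZFP36L2 are left of 0 in the hepatic one.

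A list of 21 genes held cytokines that induce these chemokines, their receptors and adaptors, and the interleukin-1 receptor antagonist IL1RN. Of these, 18 were tested. The cardiac co-culture had 3 of them higher and 1 lower than monoculture (4 and 1 without cardiac replicate 4), beside 8.26% of all genes called (19.1% without that library). IL1A, an interleukin-1 released by stressed cells, had 4.59 ± 2.10 CPM in the cardiac co-culture against 1.46 ± 0.493 CPM in monoculture (log2 fold change 1.63 ± 0.37, edgeR adjusted p = 0.0181). OSMR, the oncostatin M receptor, was higher by 0.62 ± 0.15 (adjusted p = 0.0269), and IL6R lower (-0.41 ± 0.10, adjusted p = 0.0169). The list's count of 4 came to 0 without cardiac replicate 1, 2 or 3 or monoculture replicate 3, to 1 without monoculture replicate 1 and to 2 without monoculture replicate 4. Over all genes the calls fell in each of these fits as well, from 1443 to as few as 263.

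In the hepatic co-culture 5 genes of this list were higher and 4 lower than in monoculture, beside 28% of all genes called. The antagonist IL1RN was among the lower ones. IL1B had 6.79 ± 1.18 CPM in the hepatic co-culture against 2.74 ± 0.681 CPM in monoculture (log2 fold change 1.31 ± 0.24, edgeR adjusted p = 0.000634). IL6R (-0.81 ± 0.10, adjusted p = 1.35e-05) and the interleukin-1 receptor IL1R1 (-0.68 ± 0.11, adjusted p = 0.000296) were lower. IL1A was higher in the hepatic co-culture as well (1.27, edgeR adjusted p = 0.0188). IL1B was also higher in the cardiac co-culture than in monoculture (0.91, edgeR adjusted p = 0.0286). Neither was called between the co-cultures (edgeR adjusted p = 0.626 for IL1A and 0.354 for IL1B). IL1R1 and IL6R were higher in the cardiac than in the hepatic co-culture, by 0.72 and 0.40 on the log2 scale, and the call on IL6R was lost without cardiac replicate 4 (edgeR adjusted p = 0.0583) or hepatic replicate 3.

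Chemokine transcripts are unstable and are cleared by RNA-binding proteins, of which 11 with their regulators were listed and tested. In the cardiac co-culture 1 was higher and 1 lower than in monoculture, beside 8.26% of all genes called. ZC3H12A (Regnase-1), an endonuclease of inflammatory mRNAs, had 60.4 ± 12.6 CPM in the cardiac co-culture against 36.9 ± 1.79 CPM in monoculture (log2 fold change 0.71 ± 0.16, edgeR adjusted p = 0.0174), and RC3H2 was lower (-0.20 ± 0.06, adjusted p = 0.0480). Leaving out 1 library gave from 0 calls (without cardiac replicate 1, 2 or 3, or monoculture replicate 1 or 3) to 6 (without cardiac replicate 4). In that last fit 19.1% of all genes were called. In the fits with 0, calls over all genes fell from 1443 to as few as 263.

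In the hepatic co-culture 1 of the 11 was higher, ZFP36L1 (0.69 ± 0.15, edgeR adjusted p = 0.00524), and 3 were lower, 4 of 11 beside 28% of all genes called. ZFP36L2, a relative of tristetraprolin that binds AU-rich elements, had 45.4 ± 3.09 CPM in the hepatic co-culture against 119 ± 23.5 CPM in monoculture (log2 fold change -1.39 ± 0.11, adjusted p = 4.36e-07). ZC3H12C was lower by 0.63 on the log2 scale (adjusted p = 4.08e-05). Between the co-cultures ZFP36L2, ZC3H12C and ZC3H12A were the 3 called, all higher in the cardiac one, in the full fit and in all 12 that left out 1 library. This was 3 of 11, beside 3.27% of all genes called higher and 6.18% in either direction with all libraries.

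Of 21 genes that process chemokines or hold them on heparan sulfate at the cell surface, 16 were tested. MMP14, a membrane protease, was higher in both co-cultures, at 783 ± 117 CPM in the cardiac (log2 fold change 0.62 ± 0.13, edgeR adjusted p = 0.0147), 1031 ± 183 CPM in the hepatic (1.02 ± 0.13, adjusted p = 8.45e-05) and 508 ± 58.0 CPM in the monoculture libraries. ANPEP, an aminopeptidase that trims chemokines, had 6.42 ± 3.66 CPM in the cardiac, 1.08 ± 0.342 CPM in the hepatic and 5.87 ± 1.59 CPM in the monoculture libraries. It was lower in the hepatic co-culture than in monoculture (-2.44 ± 0.35, adjusted p = 0.000186) and higher in the cardiac than in the hepatic co-culture (2.58 ± 0.35, adjusted p = 0.000329). In all, 2 were higher and 1 lower in the cardiac co-culture against monoculture, beside 8.26% of all genes called, the others being the syndecans SDC4 (0.39 ± 0.10, adjusted p = 0.0231) and SDC2 (-0.28 ± 0.08, adjusted p = 0.0403). Of the 12 fits that left out 1 library, SDC4 was called in 7, SDC2 in 4 and MMP14 in 11. The count of 3 came to 0 without cardiac replicate 2, to 1 without cardiac replicate 1 or 3 or monoculture replicate 1 or 3, and to 6 without cardiac replicate 4. In that last fit 19.1% of all genes were called. In the fits with 0 or 1, calls over all genes fell from 1443 to as few as 263. In the hepatic co-culture 2 were higher and 5 lower, 7 of 16 beside 28% of all genes called, among them the sulfotransferase NDST1 (-0.33 ± 0.08, adjusted p = 0.00395), which was lower. SDC4 was higher (0.31, adjusted p = 0.0260) and SDC2 lower (-0.235, adjusted p = 0.0346) in the hepatic co-culture too.

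Markers of other cells were checked, since stromal, immune and neighbouring tissue cells also make these genes. All 10 markers chosen for the mesenchymal cancer line were at 1 CPM or more in every condition. Of 8 genes chosen as absent from that line, 5 were also at 1 CPM or more in every condition. The 8 summed to 209 to 253 CPM in the cardiac, 196 to 237 in the hepatic and 228 to 269 CPM in the monoculture libraries. Most of this was KRT18 (149, 138 and 158 CPM on average in the same order) and ERBB2 (64.0, 56.05 and 66.8 CPM). The hormone receptors ESR1 and PGR averaged at most 0.132 CPM. The 15 leukocyte markers summed to 13.2 to 16.6 CPM in the cardiac, 7.71 to 12.1 CPM in the hepatic and 7.03 to 13.4 CPM in the monoculture libraries, mostly CD14, with PTPRC (CD45) at 0.121, 0.0861 and 0.0660 CPM on average and MS4A1 and CD163 at 0 throughout. CD14 (10.65, 5.32 and 8.31 CPM) and CSF1R (2.06, 1.19 and 1.76 CPM) averaged highest in the cardiac libraries. ITGAX (1.03, 1.70 and 0.412 CPM) and LYZ (0.362, 0.899 and 0.231 CPM) averaged highest in the hepatic libraries. The 14 fibroblast markers summed to 46.6 to 60.5, 31.3 to 56.7 and 43.7 to 50.8 CPM in these conditions, mostly COL6A3, with THY1 and POSTN at 0 throughout. In the same order 6, 4 and 6 of the 14 averaged 1 CPM or more. COL1A1 had 6.05, 8.49 and 5.95 CPM and COL1A2 1.80, 4.55 and 1.56 CPM on average. DCN (2.02, 0.278 and 2.48 CPM) and FBLN1 (3.94, 0.856 and 6.12 CPM) went the other way, so the sum mixed opposite shifts. The 16 hepatocyte markers summed to 75.2 to 99.1, 43.0 to 69.3 and 46.6 to 77.6 CPM, mostly SERPINA1, with APOA2 and RBP4 at 0 throughout and ALB at 0.0546, 0.10 and 0.160 CPM on average. SERPINA1 averaged 82.0, 46.5 and 57.4 CPM, while CYP3A5 went the other way at 3.78, 11.05 and 3.44 CPM.

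The 16 cardiomyocyte markers summed to 1.72 to 5.0 CPM in the cardiac, 1.52 to 2.72 CPM in the hepatic and 2.53 to 3.62 CPM in the monoculture libraries. MYH6 had 21 counts in cardiac replicate 4 and 0 in every other library. The 9 endothelial markers summed to 81.5 to 90.8 CPM in the cardiac, 99.7 to 109 CPM in the hepatic and 73.1 to 84.5 CPM in the monoculture libraries, mostly ESAM and PECAM1, with CDH5 at 0, 0.0381 and 0.0138 CPM on average. In the same order 5, 5 and 3 of the 9 averaged 1 CPM or more. TIE1 had 1.93, 3.15 and 0.367 CPM and VWF 1.62, 2.86 and 0.596 CPM, while KDR went the other way at 2.35, 1.26 and 3.22 CPM. The leukocyte and hepatocyte sums averaged highest in the cardiac libraries (14.7 ± 1.54 and 87.0 ± 12.5 CPM) and the endothelial sum in the hepatic libraries (103.9 ± 4.06 CPM), beside the higher ligands and the lower CXCR4, and their part in these results was not tested. Each of these sums mixed opposite shifts.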

How the data were processed

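Poly(A)-selected RNA of the cancer tissue was sequenced in 12 libraries, and the values used are raw counts per Ensembl gene deposited by the authors in 1 table, with no normalization. The submitters' processing notes name GRCh38 as build and list DESeq2 1.42.0, featureCounts 2.0.6 and HISAT2 2.2.1, without order or settings. Annotation release, read filters and strand setting: not given in the sources used here. Symbols, exon lengths and GRCh38 positions came from GENCODE release 29, which held all 58735 identifiers. No row lacked a gene.

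The test was the robust quasi-likelihood test of edgeR 4.0.16 under R 4.3.3, two-sided, after TMM scaling and the low-count filter filterByExpr, in 1 fit over 12 libraries with group as the factor and Benjamini-Hochberg adjustment over 17468 genes. CCL2 and CCL5 did not pass the filter. A gene is called at an adjusted p under 0.05, and ± after a fold change is its standard error. Levels per kb divide CPM by the length of all exons. Correlations used log2 CPM with a prior count of 2. The fit was tested on simulated data. Alternatives were DESeq2 1.42.0, its size factors or upper-quartile scaling in edgeR, no filter, a replicate block, 2 groups at a time, and each library left out in turn. Replicates of 1 group differed by more than sampling noise, so none were merged.

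The 10 members and the gene lists were chosen with earlier results of these data known, so counts over them are descriptions. Besides the members, each list gave up to 3 called genes of smallest adjusted p per comparison, or the 2 of highest level where 0 passed.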

Additional observations from a re-analysis of the deposited data

Results flagged for a closer look

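A library far from the rest of its group was found in 2 of 28 groups of 4 libraries looked at, and chance gives about 1 in 20. CXCL8 in monoculture replicate 3 was the low one, at 22.0 CPM, and ACKR3 in hepatic replicate 1 the high one, at 3.18 CPM.

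Since both co-cultures are set against the same monoculture libraries, the direct test between them shows where their effects differed. It called CCL20 (log2 fold change of cardiac over hepatic 1.54) and the chemokines CX3CL1 (1.68), CXCL11 (1.87) and PF4 (3.39). It also called BIRC3 (1.46), NFKBIA (0.69), TNIP1 (0.55) and IKBKE (0.59) of the NF-kB genes. How the call on NFKBIA fared in each fit that left out 1 library is not given here. Of the cytokine receptors it called IL1R1 (0.72), IL6R (0.40) and IL6ST (0.29), and of the mRNA decay genes ZFP36L2 (1.12), ZC3H12A (0.78) and ZC3H12C (0.60). The others were ANPEP (2.58), DOCK1 (0.24), SDC1 (-0.48) and GRK2 (-0.21). Without cardiac replicate 4 the calls on CXCL11, PF4, GRK2 and IL6R were lost by edgeR's quasi-likelihood test. The calls on IL6ST and DOCK1 were lost in 9 and 5 of the 12 fits that left out 1 library.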

How the results depend on the processing

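The depth limits CXCR4 and ACKR3, at 6 to 108 counts a library, and CCL2 and CCL5 did not pass the low-count filter. The 12 libraries were left out in turn. Members called higher then numbered 0 to 6 in the cardiac co-culture against monoculture, 0 to 3 in the hepatic one and 0 to 2 in the cardiac against the hepatic one, and members called lower 0 to 1 in the hepatic one and 0 in the other comparisons. All genes called numbered 263 to 3378, 3660 to 5529 and 676 to 1269 in these comparisons, against 1443, 4892 and 1080 with all libraries. By DESeq2, 6 members were higher in the cardiac and 2 in the hepatic co-culture against monoculture and 2 between the co-cultures, and 2406 genes were called for the cardiac co-culture. With no low-count filter 2219 genes were called there, with 2 members higher in the hepatic co-culture and 0 between the co-cultures. Upper-quartile scaling gave 2 members higher in the hepatic co-culture, and fitting 2 groups at a time gave 3 there and 0 between the co-cultures. The cause of these shifts was not tested.

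The replicate numbers did not pair the libraries: over 12 same-number pairs the correlation of deviations from the group mean ran from -0.082 to 0.113, with 1 above 0.1. With the replicate number as a block, 2 members were called higher in the cardiac co-culture, 1 higher and 1 lower in the hepatic one and 0 between the co-cultures (CCL20 lost there and against monoculture).

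Values that turned sign with 1 library left out were all short of the threshold: against monoculture CCL20 (range -0.395 to 0.018, positive without hepatic replicate 2), CXCL1 (-0.002 to 0.551) and CXCL2 (-0.289 to 0.334, both negative without hepatic replicate 4) in the hepatic co-culture and CXCL16 (-0.040 to 0.329, negative without monoculture replicate 3 or, at -0.009, cardiac replicate 2) in the cardiac one, and between the co-cultures CCR1 (-0.678 to 0.054, positive without hepatic replicate 1) and CCRL2 (-0.032 to 0.019, positive without hepatic replicate 3 and, at 0.005 and 0.008, cardiac replicates 1 and 4). The median correlation among members was 0.405 and came to 0.384 without cardiac replicate 4. Scaling moved the median of all genes by under 0.1 (log2).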
